A study of Mus musculus with 7 samples.

Results

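The transcriptome of the gentamicin-damaged mouse utricle is described here from RNA sequencing of the 3 libraries labelled as gentamicin controls (Gent), out of 7 libraries in the series. Members were chosen by that label alone. The other 4 libraries came from damaged utricles in which Fos was also overexpressed from an AAV (Gent+Fos OE), and no contrast with them was made. Each Gent library was prepared from pooled utricles of wild-type mice at postnatal day 2 (P2), C57BL/6J in the methods. The methods give 12 utricles per group, read here as 12 per library. The variation shown here is that between pools, and it holds biological and technical spread. Per the methods, the explants were exposed to 2 mM gentamicin for 24 h and collected on day 5 after the injury. The otoconia and the membrane over the hair cells had been taken off before culture in serum-free medium. The methods name pooled utricles, while the paper's results call the sequenced material vestibular sensory epithelia. Whether non-sensory borders and underlying stroma were kept is not stated. Gentamicin was common to all 7 libraries, and undamaged utricles were not analysed here. The labels name gentamicin as the only treatment of this group, and the sources used here do not settle whether these utricles also received a control virus.

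The utricle is an otolith organ of the vestibular system. Its sensory patch, the macula, holds hair cells, which turn deflection of their stereocilia into receptor potentials, and supporting cells, which surround the hair cells, couple to each other through gap junctions and secrete the otolithic membrane. Aminoglycosides such as gentamicin enter hair cells and kill them, and supporting cells of the neonatal mouse utricle can replace part of the loss. Dark and transitional cells border the macula and move ions into and out of the endolymph, while fibroblasts, melanocytes, Schwann cells, nerve endings, vessels and resident macrophages lie beneath or around the epithelium. In bulk RNA of this kind, fewer cells of a type and less RNA per cell cannot be told apart.

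The 3 libraries held 29892816, 32028570 and 34335214 gene counts in replicates 1 to 3. Counts were divided by the exonic length of each gene and scaled to 1000000 per library (TPM), so a TPM value is a level per length. The exonic length joins all annotated exons of a gene, and reads shared between genes were not counted, so comparisons between genes are approximate. A gene was taken as detected at 1 TPM or more in each of the 3 libraries, a limit that corresponded to 16.2 to 21.0 counts for a gene of 2000 exonic bases. This held for 14579 of 32285 genes (45.2%), among them 13575 of 21274 protein-coding genes and 949 of 9566 lncRNA genes. The median level was 23.3 TPM for detected protein-coding genes and 3.65 TPM for detected lncRNA genes. A mean of 100 TPM or more was reached by 1712 detected genes and a mean of 1000 TPM or more by 107. The chi-square of the counts per degree of freedom lay between 22.8 and 116 for the 3 pairs of libraries. Counting error alone would give 1 if the reads were independent. Each read of a pair was counted separately, which by itself raises that value above 1. The chi-square sets the spread between libraries against counting error only, and the libraries were kept as 3 samples.

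Replicate 2 stood apart from the other pools in how its levels ran with gene length. Spearman's rho between exonic length and the log2 TPM difference of a library from the other 2, across the 14579 detected genes, was -0.56 in replicate 2, 0.53 in replicate 1 and 0.26 in replicate 3. The detected genes were split by length into 5 groups of nearly equal number. In the group of longest genes, with exonic lengths from 7368 to 41619 bases, the median log2 TPM of replicate 2 lay 0.50 below the mean of the 3 libraries, whereas that of replicate 1 lay 0.34 above it and that of replicate 3 lay 0.16 above it. In the group of shortest genes, from 66 to 2246 bases, replicate 2 was 0.15 above that mean and replicate 1 was 0.14 below it. The lowest value was in replicate 2 for 59.6% of the detected genes, in replicate 1 for 27.0% and in replicate 3 for 13.4%. Orders of the pools, and descriptions of genes as even, given from here on are those of TPM unless values with the length trend removed stand beside them, and for long genes such an order can change once the trend is removed. The cause of the trend was not tested.

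**Figure D1:**
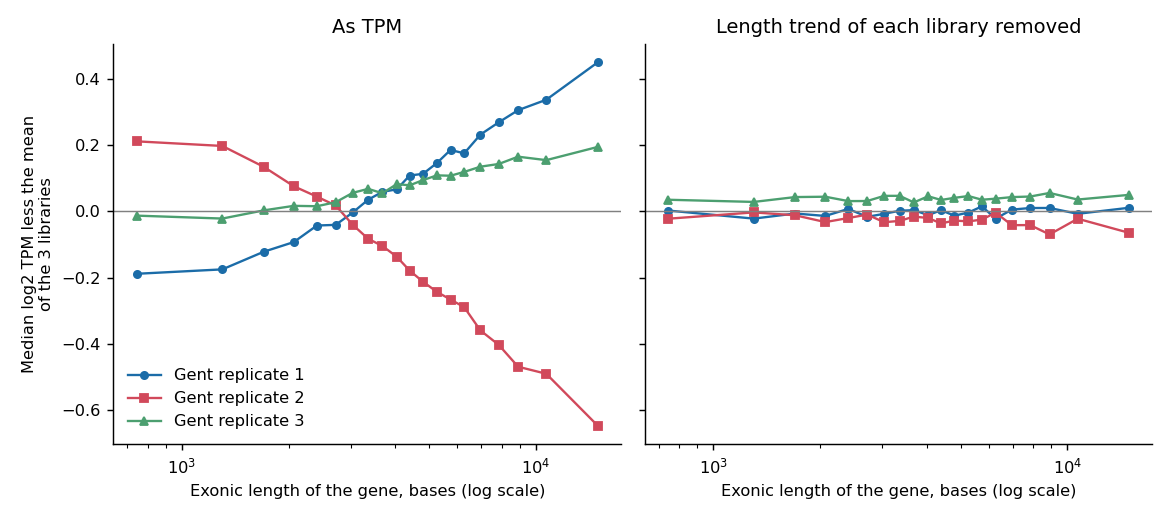
Exonic length in bases on a log axis is plotted against the median log2 TPM of each library less the mean of the 3 libraries, in 20 bins of detected genes. Replicate 2 (red squares) falls from 0.21 in the bin of shortest genes to -0.65 in the bin of longest genes while replicate 1 (blue circles) rises from -0.19 to 0.45 (left), and all lines lie between -0.070 and 0.055 after the trend of each library was removed (right).

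Transcripts of mitochondria, ribosomes, iron storage, lysosomes and macrophages stood at the top. The 13 mitochondrially encoded genes took 5.71%, 7.06% and 5.13% of all TPM in replicates 1 to 3, and 83 ribosomal protein genes took 6.34%, 9.07% and 6.79%. Both shares were highest in replicate 2, and both groups are of short genes, with median lengths of 784 and 1770 bases. Reads that mapped to several places were not counted by the authors, so both shares miss reads that nuclear copies and pseudogenes share. The 10 highest genes together took 9.27%, 10.5% and 8.66% of TPM, and the 1000 highest took 56.7%, 62.9% and 57.2%.

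Outside those 2 classes, Lyz2 (ENSMUSG00000069516, chromosome 10 from 117277331 to 117282321 on mm10), the lysozyme of macrophages and other myeloid cells, was the highest gene at 10473, 10734 and 8637 TPM in replicates 1 to 3 (9948 ± 1143 TPM, SD, n = 3). Replicate 3 was the lowest of the 3 pools, by a factor of 1.24 against the highest. The ferritin light chain Ftl1, which stores iron, followed at 8978, 11201 and 8699 TPM. The ferritin heavy chain Fth1 stood at 4845, 5906 and 4606 TPM, and both ferritins were highest in replicate 2. Ctsd, which encodes the lysosomal protease cathepsin D, was found at 6547, 6576 and 6661 TPM, and its CV of 0.901% was the smallest of the 20 highest genes. Psap, the precursor of the saposins that lysosomal lipid breakdown needs, reached 3454, 2244 and 3431 TPM. Apoe, a lipid carrier that macrophages and glia secrete, reached 3601, 4729 and 3713 TPM.

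Secreted and matrix proteins made up a further part of the top 20. Sparc, a collagen-binding matrix protein, stood at 5949, 6212 and 5929 TPM with a CV of 2.62%. Mgp, an inhibitor of calcification, stood at 3019, 2916 and 2880.5 TPM with a CV of 2.44%, so both were even over the pools. Spp1, which encodes osteopontin, was at 4066, 3032 and 4083 TPM and lowest in replicate 2. Igfbp2, which binds insulin-like growth factors, was at 3251, 4742 and 3617 TPM and highest there. Coch, which encodes cochlin of the inner ear stroma, was the highest marker gene after Lyz2, at 2858, 3070.4 and 3094 TPM. S100a1, a calcium-binding protein gene of only 694 exonic bases, had the largest CV of the 20 (35.5%), at 3149, 6295 and 4147 TPM with replicate 2 the highest. Lcn2, which encodes the iron-sequestering acute phase protein lipocalin 2, was found at 2557, 3619 and 1798 TPM, a ratio of 2.01 between the highest and the lowest pool. The imprinted lncRNA H19 reached 3777, 3641 and 2677 TPM and was the single lncRNA among the 20. The other 6 were Eef1a1 of translation, Tmsb4x and Actb of the actin cytoskeleton, B2m of MHC class I, and the membrane protein genes Tmem176b and Itm2b, with means between 2683 TPM for Itm2b and 9129 TPM for Eef1a1.

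**Figure D2:**
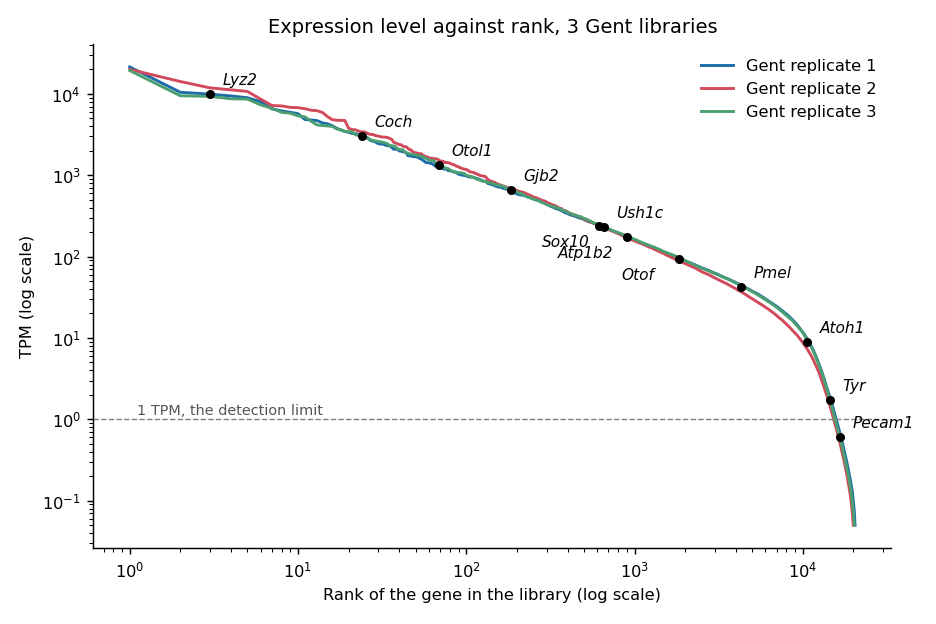
TPM against the rank of the gene, both on log axes, for the 3 Gent libraries (lines), with 12 marker genes placed at their mean TPM and the rank of that mean (black points). The curves of the pools lie close together, and the markers run from Lyz2, ranked 3, through Coch (24), Otol1 (69) and Gjb2 (184) to Atoh1 (10648) and Pecam1, which is under the dashed line of 1 TPM.

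To order the cell types, 256 marker genes in 19 lists were used, 191 of which were detected. The level of a list is the median of its members' mean TPM, given with the percentile at which that median stands among detected genes, whose own median was 21.1 TPM. Macrophage genes had the highest median of mean TPM, 154 TPM (percentile 92.8). Mesenchyme followed at 145 TPM (92.3), then otoconia and otolithic membrane at 142 TPM (92.1), general epithelium at 89.2 TPM (86.7) and supporting cells at 64.0 TPM (81.0). From macrophages to supporting cells, each list overlapped the next in its range over the 3 pools, so neighbours were not separated by their ranges. Within each pool, otoconia stood above general epithelium and general epithelium above supporting cells in 3 of 3 pools, whereas macrophages over mesenchyme and mesenchyme over otoconia held in 1 of 3. Lists farther apart were, since the macrophage medians of 179, 119.6 and 137 TPM, and those of mesenchyme and otoconia, all lay above the supporting cell medians of 65.8, 47.0 and 74.7 TPM. Dark and transitional cells came after them at 25.7 TPM (55.9), with no overlap with supporting cells. Schwann cells and glia stood at 19.5 TPM (47.4), hair cells at 17.3 TPM (43.8) and melanocytes at 7.55 TPM (23.3). In the single pools the hair cell medians were 12.3, 14.7 and 15.5 TPM, each below the 17.3 TPM of their mean TPM. The ranges of glia and hair cells overlapped, whereas dark cells lay above glia, and hair cells above melanocytes, without overlap. Lower medians of mean TPM were those of neutrophils and mast cells (4.30 TPM), cartilage and bone (3.50 TPM), pericytes and smooth muscle (2.67 TPM), neurons (1.93 TPM) and endothelium (1.51 TPM). In the single pools the neutrophil and mast cell medians were 4.24, 0.172 and 2.37 TPM, below those of cartilage and bone at 7.01, 1.42 and 3.11 TPM in each pool. The lymphocyte, erythroid, skeletal muscle, liver and sperm lists all had medians under 1 TPM.

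The muscle, liver and sperm lists stand for tissues foreign to the utricle. Of their 24 genes, 17 were below 1 TPM in all 3 pools and 5 were detected, and the highest value was 6.36 TPM, of the myosin light chain gene Mylpf in replicate 2. The other detected members were the troponin genes Tnnt3 and Tnni2, and Apoa2 and Afp of the liver. Acta1 of muscle and Apoh of the liver passed 1 TPM in some pools. Below 1 TPM in all 3 were Ckm, Myl1, Myh3 and Myh8 of muscle, Alb, Apoa1, Ahsg, Fgb and Serpina1a of the liver, and the whole sperm list (Prm1, Prm2, Tnp1, Tnp2, Odf1, Akap4, Ldhc and Spata18). Of 346 vomeronasal receptor genes, 307 had no count and none was detected. Among 1139 olfactory receptor genes, 4 were detected and the highest value was 11.7 TPM. A few TPM were thus also reached by genes with no known place in this organ.

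**Figure D3:**
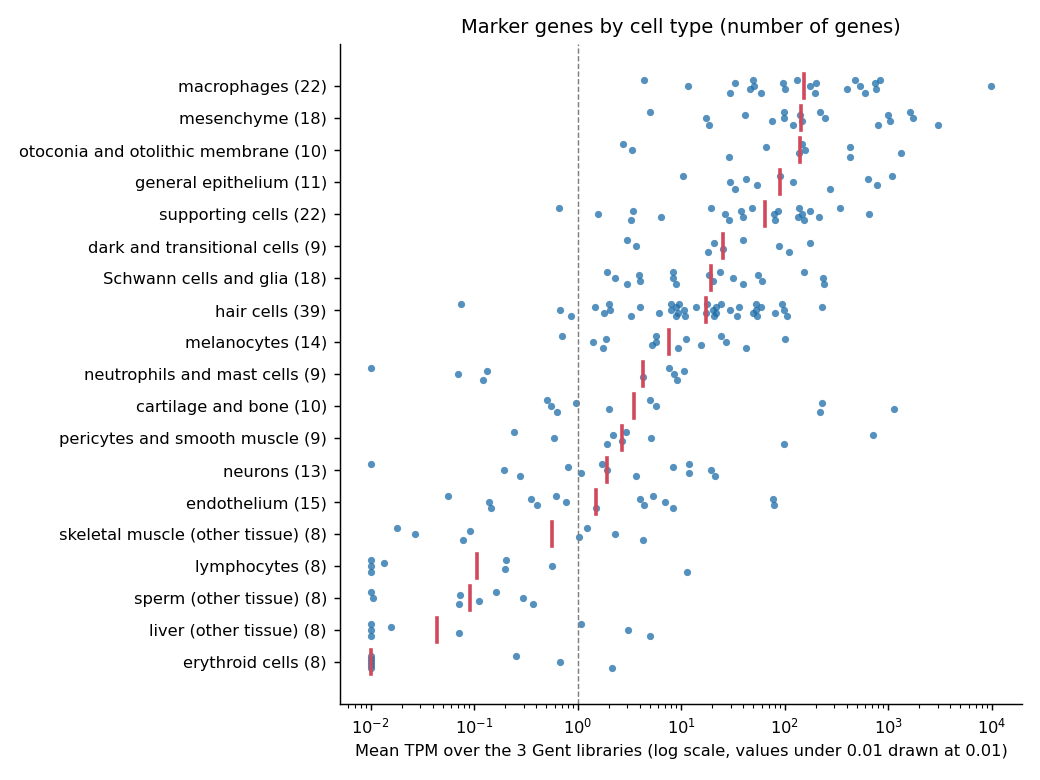
Mean TPM over the 3 Gent libraries on a log axis for each marker gene (blue points), by cell type list with the number of genes in parentheses, ordered by the list's median (red bars); the dashed line is 1 TPM. The medians of the macrophage, mesenchyme, otoconia, epithelium and supporting cell lists lie at or above 64.0 TPM, that of hair cells at 17.3 TPM, and those of lymphocyte, erythroid and foreign-tissue lists below 1 TPM.

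Macrophages are phagocytes that clear dying cells and debris, and their genes had the highest sum of the marker lists in each pool, a lead that rested on Lyz2. All 22 were detected, with a summed level of 16305, 16447 and 13655 TPM in replicates 1 to 3, of which Lyz2 made up 64.3%. Adgre1, which encodes the surface marker F4/80, stood at 921, 625 and 703 TPM and was highest in replicate 1. C1qa, C1qb and C1qc encode the chains of complement C1q, which tissue macrophages make. C1qb was at 809.6, 972 and 695 TPM. C1qa was at 732, 857 and 709 TPM and C1qc at 389, 429 and 372 TPM, and their ratio of 1.88, 1.998 and 1.91 hardly moved between the pools. Cd68, of the lysosomal membrane, stood at 583, 633 and 567 TPM. The signalling adaptor Tyrobp was found at 465, 537 and 423 TPM. Spi1, which encodes the lineage regulator PU.1, was at 99.8, 114 and 87.9 TPM. All of these were abundant in every pool, with CVs of at most 20.4%.

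Several long macrophage genes were lowest in replicate 2. The mannose receptor Mrc1, with 6371 exonic bases, was at 68.9, 21.7 and 57.3 TPM, and at 60.2, 26.6 and 54.5 TPM with the length trend removed. The chemokine receptor Cx3cr1, with 4505 exonic bases, was at 47.0, 22.6 and 30.7 TPM. Cybb, the catalytic subunit of the phagocyte oxidase, was at 281, 101 and 204 TPM, and at 250.5, 121 and 195 TPM with the trend removed. Csf1r, the receptor for the growth factor that macrophages depend on, departed from these with its lowest value in replicate 3, at 162, 126 and 108 TPM, although 15.1% of its exonic bases are shared with another gene and reads there were not counted. The lowest members were Ptprc, the pan-leukocyte antigen CD45, at 17.5, 5.76 and 11.6 TPM and the haemoglobin scavenger receptor Cd163 at 5.71, 1.73 and 5.73 TPM. With the length trend removed, 17 of the 22 genes were highest in replicate 1, as were 4558 of the 14579 detected genes, and the sums were 17881, 14655 and 14119 TPM.

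The promoters of Lyz2, the highest nuclear gene, and of Cd68, the most even of the abundant macrophage genes, are shown as RefSeq gives them on GRCm38.p6, from 250 bases before to 50 bases after the start site, 5′ to 3′ on the strand of the gene. They were read on both strands for the TATA box (TATAAA), the AP-1 site (TGACTCA), which factors of the Fos and Jun families bind, and a PU.1 site (GAGGAAGT), none of which overlaps another in the windows shown. Capitals mark a match. Lyz2 (chr10:117282223-117282522, minus strand) held none of the 3 motifs, and Cd68 (chr11:69666121-69666420, minus strand) held the AP-1 letters at 2 places, read on the opposite strand.
Lyz2: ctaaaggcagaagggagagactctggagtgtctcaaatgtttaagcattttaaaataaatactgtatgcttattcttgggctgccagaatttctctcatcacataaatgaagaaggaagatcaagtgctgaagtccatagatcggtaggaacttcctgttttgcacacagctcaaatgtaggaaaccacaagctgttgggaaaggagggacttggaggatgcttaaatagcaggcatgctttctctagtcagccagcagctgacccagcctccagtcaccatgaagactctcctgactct
Cd68: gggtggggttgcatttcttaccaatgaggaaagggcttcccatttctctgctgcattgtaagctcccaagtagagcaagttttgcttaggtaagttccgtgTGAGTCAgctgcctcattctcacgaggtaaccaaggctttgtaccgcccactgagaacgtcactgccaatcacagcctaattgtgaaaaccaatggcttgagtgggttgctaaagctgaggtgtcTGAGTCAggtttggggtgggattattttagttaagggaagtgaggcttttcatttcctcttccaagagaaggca

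Genes of other blood cells were low or at 0. Of 8 T and B cell genes, Cd79b of the B cell receptor was detected at 11.3, 13.8 and 8.99 TPM, and the other 7 were under 1 TPM in all 3 pools, with no count for Cd3d and Cd2. Cd79a, its partner in that receptor, was at 0.594, 0.392 and 0.706 TPM, and the T cell genes Cd3e and Cd3g and the B cell gene Ms4a1 were lower still. Of the mast cell proteases, Mcpt4 was under 1 TPM in every pool and the other 3 of the list were low. Cma1 was at 7.49, 10.7 and 7.17 TPM. Tpsb2 was at 5.66, 8.0 and 9.23 TPM and Cpa3 at 4.24, 4.33 and 4.34 TPM. The alarmins S100a8 and S100a9, which neutrophils hold in quantity, were uneven, and both were highest in replicate 1. S100a8 was at 19.2, 1.92 and 5.93 TPM on 108, 14 and 40 counts. S100a9 was at 29.6, 0 and 2.37 TPM on 125, 0 and 12 counts. The granule protein genes Mpo and Elane and the surface marker Ly6g were under 1 TPM in every pool. None of 8 erythroid genes was detected. The erythroid regulator Klf1 was the highest at 0.728, 2.49 and 3.23 TPM, and Alas2, of haem synthesis, and Hba-a1 were under 1 TPM in all 3 pools. Of the rest, Hbb-bs, Hbb-bt, Hba-a2 and Slc4a1 had no count, though reads that globin paralogs share would have been left out as multi-mapping.

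Mesenchymal genes came next, and their matrix members ranged from Coch, Otor and Col1a2, which were among the 100 highest genes, to the proteoglycan gene Lum at 143, 64.3 and 85.8 TPM. All 18 were detected, with sums of 11833, 9325 and 10176 TPM. Coch (ENSMUSG00000020953) lies on chromosome 12 from 51593341 to 51605771 and was the most even of the list, with a CV of 4.33%. Otor, which encodes otoraplin, a secreted protein of inner ear fibrocytes, reached 1507, 1691 and 2059 TPM and was highest in replicate 3. The collagen genes were highest in replicate 1 as TPM. Col1a2, with 12426 exonic bases, was at 2208, 1173 and 1468 TPM. Col3a1 was at 985, 645 and 759 TPM, but at 795, 877 and 705 TPM with the length trend removed, where replicate 2 was the highest. Col1a1, whose product joins that of Col1a2 in type I collagen, was counted at only 231, 110.2 and 102 TPM. Fn1, which encodes fibronectin, was likewise highest in replicate 1, at 1694, 731 and 736 TPM, and at 1321, 1037 and 678 TPM with the trend removed. Vim, the filament vimentin, which macrophages and glia also make, was at 995, 1092 and 882 TPM. Of the regulators, Tbx18, Pou3f4, Twist1 and Prrx1 were lowest in replicate 2 with and without the trend, whereas Twist2 was highest there at 4.68, 6.60 and 3.73 TPM. Tbx18, with 4718 exonic bases, was at 148, 78.8 and 130.4 TPM. Pou3f4, with 2928, was at 194, 66.0 and 164 TPM. The growth factor receptor Pdgfra was at 135, 48.9 and 113 TPM, and at 108, 66.7 and 105 TPM with the trend removed. Replicate 2 held the lowest value for 12 of the 18 genes, as for 8691 of the 14579 detected genes, and those 12 had a median length of 7270 bases. After removal of the length trend the sums were 10772, 10482 and 9968 TPM, and their CV was 3.91% in place of 12.2%.

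Promoters were matched for 12 of the 18 mesenchymal genes. Otor is shown as the highest of those that held TATAAA on the strand of the gene, here from position -35 relative to the start site (chr2:143078143-143078442, plus strand).
Otor: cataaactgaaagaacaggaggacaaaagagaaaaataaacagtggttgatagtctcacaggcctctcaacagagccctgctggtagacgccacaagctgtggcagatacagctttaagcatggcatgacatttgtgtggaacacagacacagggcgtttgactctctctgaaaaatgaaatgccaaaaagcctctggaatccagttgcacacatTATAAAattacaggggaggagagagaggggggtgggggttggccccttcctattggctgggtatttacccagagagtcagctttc

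Cartilage and bone genes were uneven, 5 of 10 being detected. Col2a1, the type II collagen of cartilage and of the inner ear, made up 71.2% of the sum at 1302, 1196 and 954 TPM. Col9a1, a collagen that decorates type II fibrils, was at 249, 183 and 261 TPM. Cnmd, which encodes chondromodulin, was at 175, 261 and 221 TPM. The cartilage proteoglycan Acan was far lower at 8.71, 1.72 and 4.56 TPM and Runx2, the regulator of bone, was at 8.10, 3.52 and 5.39 TPM. The bone genes Ibsp and Sp7 were above 1 TPM in replicate 1 only and Bglap in replicate 3 only.

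Genes of epithelia in general were all detected, 11 of 11. The adhesion molecule gene Epcam was the highest at 1019, 953 and 1261 TPM. Krt8 and Krt18 encode keratins that pair in simple epithelia. Krt8 was at 571, 777 and 565 TPM. Krt18 was at 655, 979 and 695 TPM, and the ratio of Krt8 to it was 0.87, 0.79 and 0.81. Cldn4, a claudin of tight junctions, was the most even of the list at 276, 270.0 and 284 TPM. The cadherin gene Cdh1, with 4574 exonic bases, was at 104, 63.0 and 100.4 TPM and lowest in replicate 2. The sums of 2894, 3346 and 3203 TPM had a CV of 7.34%, under that of every other marker list but neurons.

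Cldn4 is shown for the AP-1 letters that its promoter held at 2 places on its own strand (chr5:134946885-134947184, minus strand of the chromosome).
Cldn4: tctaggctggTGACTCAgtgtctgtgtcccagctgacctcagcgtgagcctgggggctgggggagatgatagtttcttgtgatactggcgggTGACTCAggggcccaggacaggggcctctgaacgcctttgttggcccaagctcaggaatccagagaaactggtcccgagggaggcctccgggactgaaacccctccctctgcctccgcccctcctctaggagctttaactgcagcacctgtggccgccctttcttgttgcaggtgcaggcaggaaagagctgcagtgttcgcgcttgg

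Transcripts for the proteins of otoconia and of the membrane that carries them were abundant, and all 10 genes were detected. Otol1 (ENSMUSG00000027788, chromosome 3 from 70007613 to 70028708 on mm10), which encodes otolin of the otoconial matrix, was found at 1203, 1297 and 1536 TPM and made up 48.9% of the sum. Oc90, which encodes the main otoconin, was at 380.1, 486 and 431 TPM. Sparcl1, a relative of Sparc, was at 468, 313 and 503 TPM. Tecta, Tectb and Otog encode proteins of the membrane over the hair cells. Tecta was at 172, 127 and 177 TPM. Tectb was at 142, 76.3 and 194 TPM. Otog was at 155, 124 and 160.4 TPM. As TPM all 3 were highest in replicate 3 and lowest in replicate 2. With the length trend removed Tectb kept this order at 137, 82.2 and 191 TPM, while Otog was highest in replicate 2 at 124, 170.2 and 149 TPM and Tecta was lowest in replicate 1 at 146, 161 and 167 TPM. Otop1, a proton channel gene needed for otoconia, was at 64.5, 50.6 and 85.2 TPM. The oxidase gene Nox3, also needed for them, was the lowest at 1.86, 1.38 and 4.94 TPM. Replicate 3 was the highest pool for 8 of the 10 genes, with and without removal of the length trend, as it was for 4192 of the 14579 detected genes as TPM and for 4631 with the trend removed.

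Of 22 supporting cell genes 20 were detected. Otog, Otogl and Tectb stand in this list and in that of the otolithic membrane. Gjb2, which encodes the gap junction protein connexin 26 (chromosome 14 from 57098600 to 57104702), was the highest at 576, 609 and 791 TPM. Gjb6, which encodes connexin 30, followed at 307, 306 and 417 TPM. The pair was highest in replicate 3, and the ratio of Gjb2 to Gjb6 was 1.88, 1.99 and 1.90. The glutamate transporter gene Slc1a3 was at 219.6, 150.2 and 272 TPM. Sox2, a regulator of sensory progenitors, was at 139, 129.9 and 188 TPM. Sox9, of the same gene family, was at 89.4, 65.1 and 106 TPM. These were again highest in replicate 3. Cdkn1b, which encodes the p27 inhibitor that holds supporting cells out of the cell cycle, was at 90.5, 51.1 and 95.7 TPM. Cyp26b1, which degrades retinoic acid in the striola, the central zone of the macula, was at 153, 99.7 and 154 TPM. Lgr5, a receptor that amplifies Wnt signals in cochlear progenitors, was much lower at 3.80, 2.13 and 4.01 TPM. The growth factor receptor gene Fgfr3 and the Notch effector Hes5 were each below 1 TPM in at least 1 pool. Replicate 3 was highest for 16 of the 20 detected genes, as for 4192 of the 14579 detected genes, and for 18 of 20 with the length trend removed, where 4631 of all detected genes were. The sums were 2348, 1991 and 2943 TPM and, with the trend removed, 2267, 2106 and 2913 TPM.

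Hair cell genes were measurable 5 days after gentamicin, with medians of 12.3, 14.7 and 15.5 TPM in the single pools, at percentiles 32.5, 44.9 and 39.2 of the detected genes. Of 39 genes 36 were detected, and their summed level was 1064, 1283 and 1343 TPM. Among fate regulators, Hes6 was the highest at 46.4, 60.0 and 53.3 TPM. Pou4f3, which hair cells need to survive, was at 38.8, 57.3 and 53.6 TPM. Gfi1, which Pou4f3 is known to sustain, was at 22.9, 29.4 and 37.3 TPM. Atoh1, the factor that starts the hair cell programme, stood at 6.88, 9.83 and 10.3 TPM (9.01 ± 1.86 TPM, SD, n = 3), at percentile 27.0 of the detected genes. Lhx3, a homeobox regulator of hair cells, was at 14.9, 29.6 and 20.5 TPM. All 5 of these were lowest in replicate 1. Barhl1 was close to the detection limit at 1.87, 2.97 and 1.26 TPM. Insm1, known from outer hair cells of the cochlea, passed 1 TPM in replicate 1 only.

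Genes of the hair bundle and of mechanotransduction were all detected, 19 of 19. Ush1c (ENSMUSG00000030838, chromosome 7 from 46195350 to 46238503 on mm10), which encodes harmonin, a scaffold of the tip link, was the highest hair cell gene at 181, 249.8 and 255 TPM, with replicate 1 the lowest. Myo6, an unconventional myosin of the bundle base, was at 68.2, 34.5 and 73.7 TPM. Myo7a, a myosin of the tip link complex, was even at 37.0, 32.9 and 34.1 TPM. Myo15a, which carries cargo to stereocilia tips, was at 6.19, 9.56 and 8.13 TPM. Genes of the channel ranged widely. Tmc1, a pore subunit, was at 9.65, 5.49 and 11.5 TPM. Tmc2, its early counterpart, was at 2.88, 3.55 and 3.33 TPM. Lhfpl5, a partner of the channel, was at 16.8, 27.8 and 21.1 TPM. The order of Tmc1 above Tmc2 held in all 3 pools. Cib2, another channel component, was at 53.2, 103 and 83.0 TPM, but 15.8% of its exonic bases are shared with another gene. Pcdh15, a cadherin of the tip link with 23773 exonic bases, was at 9.60, 4.37 and 9.996 TPM. Cdh23, its partner in the link, was at 1.88, 1.84 and 2.35 TPM. Ptprq, a phosphatase of the stereocilia base with 7499 exonic bases, was at 51.5, 12.8 and 45 TPM, and replicate 2 lay far below the other pools. Removing the length trend left 43.6, 16.3 and 42.3 TPM for Ptprq, a ratio of 2.67 between highest and lowest.

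At the synapse, Otof, which encodes the calcium sensor of vesicle release, was found at 75.4, 93.3 and 113 TPM and was lowest in replicate 1. Cabp2, a modulator of calcium channels, was at 77.8, 125 and 112 TPM. Anxa4, a marker of type II vestibular hair cells, was at 103, 86.7 and 105 TPM. The vesicular glutamate transporter gene Slc17a8 was at 24, 16.3 and 32.5 TPM. Calb2, which encodes the buffer calretinin, was at 43.7, 61.9 and 53.4 TPM. The efferent acetylcholine receptor subunit gene Chrna9 was at 7.81, 11.0 and 9.28 TPM. Cabp2, Calb2 and Chrna9 shared the order of replicate 2 above replicate 3 above replicate 1. Ocm, which encodes oncomodulin of striolar hair cells, was at 0.338, 0.130 and 2.11 TPM. Calb1, which encodes the buffer calbindin, was the single hair cell gene under 1 TPM in all 3 pools, at 0.102, 0.0393 and 0.0849 TPM.

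Over the list, hair cell genes were lower in replicate 1 than in the other pools once length was set aside. As TPM, 20 of the 36 detected genes were lowest in replicate 1, 13 in replicate 2 and 3 in replicate 3, beside 3933, 8691 and 1955 of the 14579 detected genes. Those lowest in replicate 2 had a median length of 8678 bases, against 2827 bases for those lowest in replicate 1. With the length trend removed, 29 of the 36 were lowest in replicate 1, as were 5447 of the 14579 detected genes. The sums were then 1017, 1357 and 1324 TPM. The ratio of the supporting cell gene Gjb2 to Otof was 7.64, 6.53 and 6.98, and that of Sox2 to Pou4f3 was 3.59, 2.27 and 3.52.

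**Figure D4:**
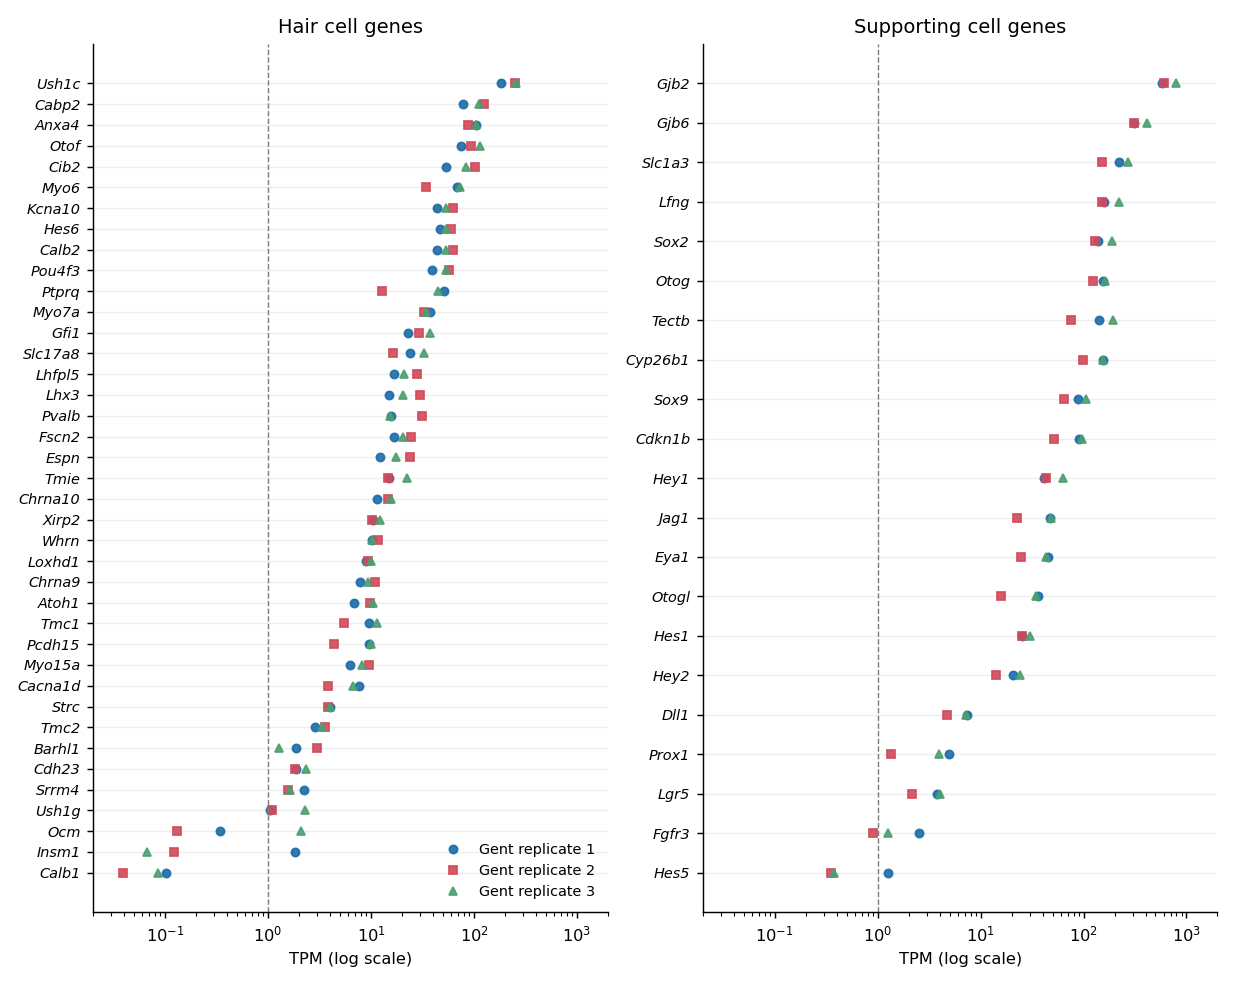
TPM on a log axis of each hair cell gene (left) and of the supporting cell genes but 1 (right) in Gent replicates 1 (blue circles), 2 (red squares) and 3 (green triangles), ordered by mean; the dashed line is 1 TPM. Replicate 1 is the lowest for 20 of the 36 detected hair cell genes, Ptprq and Myo6 are low in replicate 2, and replicate 3 is the highest for most supporting cell genes drawn.

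Dark and transitional cells secrete potassium and exchange anions at the edge of the macula. All 9 of their genes were detected, at sums of 484, 421 and 552 TPM. The sodium pump subunit gene Atp1b2 was the highest at 160.1, 174 and 192 TPM. Slc26a4, which encodes the anion exchanger pendrin, followed at 105, 99.4 and 129.6 TPM. Kcnq1 and Kcne1 encode the subunits of the potassium channel through which these cells secrete. Kcnq1 was at 33.7, 41.8 and 42.4 TPM. Kcne1 was at 20.9, 19.5 and 22.2 TPM, so the pore subunit exceeded its partner in each pool. The cotransporter gene Slc12a2, with 10920 exonic bases, was at 119, 36.8 and 109 TPM and lowest in replicate 2. Bsnd, which encodes the channel subunit barttin, was at 3.19, 4.49 and 3.25 TPM.

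Promoters were matched for 2 of the 9 dark and transitional cell genes. Slc26a4 is shown as the one of these that held TATAAA, from position -31 relative to the start site (chr12:31559935-31560234, minus strand).
Slc26a4: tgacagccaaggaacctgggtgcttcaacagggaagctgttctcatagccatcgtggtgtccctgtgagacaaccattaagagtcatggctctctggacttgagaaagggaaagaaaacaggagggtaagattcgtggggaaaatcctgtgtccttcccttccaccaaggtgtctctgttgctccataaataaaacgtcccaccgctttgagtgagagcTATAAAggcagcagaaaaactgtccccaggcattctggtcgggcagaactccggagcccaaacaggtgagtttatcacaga

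Melanocytes lie under the dark cells. Of 14 genes 13 were detected, at sums of 258, 215 and 285 TPM. The endothelin receptor gene Ednrb, which glia also use, took 39.7% of the sum at 114, 68.0 and 118 TPM. Pmel, which forms the fibrils of pigment granules, was at 30.1, 50.5 and 45.9 TPM. Dct, an enzyme of melanin synthesis, was at 23.3, 29.3 and 29.6 TPM. The potassium channel gene Kcnj10, which glia also use, was at 24.6, 21.5 and 27.1 TPM. Tyr, which encodes the rate-limiting enzyme tyrosinase, was low at 2.04, 1.34 and 1.88 TPM. Pmel and Dct were lowest in replicate 1, and the long regulators were lowest in replicate 2. Mitf, the regulator of the lineage with 6196 exonic bases, was at 11.7, 6.01 and 10.4 TPM. The growth factor receptor gene Kit, with 8911 exonic bases, was at 21.8, 6.20 and 18.7 TPM.

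Glial genes were all detected, 18 of 18. Sox10, the regulator of neural crest glia and melanocytes that otic epithelium also uses, was the highest at 172, 311 and 238 TPM, with replicate 2 the highest pool. S100b, a calcium-binding protein of glia, was at 202, 286 and 216 TPM. The neurotrophin receptor gene Ngfr was at 53.6, 70.1 and 59.1 TPM. Genes of myelin varied widely among themselves. Pmp22, which other cells also make, was at 164, 145 and 151 TPM. Mbp, myelin basic protein, was at 19.7, 15.3 and 20.9 TPM. Neuronal genes were sparse, 7 of 13 being detected. Tubb3, a neuronal tubulin, was the highest at 21.0, 25.3 and 17.1 TPM. Isl1, a homeobox regulator that otic epithelium also uses, was at 20.7, 14.6 and 23.0 TPM. The neurofilament genes Nefm and Nefl followed, Nefm at 9.99, 11.8 and 13.9 TPM. Stmn2 and Nefh were under 1 TPM in all 3 pools and Neurod1, which starts neuronal fate, had no count.

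Of 15 endothelial genes 8 were detected, and Pecam1, an adhesion molecule of endothelium, was under 1 TPM in all 3 pools, at 0.874, 0.520 and 0.446 TPM. The endothelial receptor gene Flt1, the claudin Cldn5, Tie1, Plvap and Sox17 were under 1 TPM in every pool as well. The VEGF receptor gene Kdr was detected at 10.2, 3.97 and 10.6 TPM. Cdh5, the cadherin of endothelial junctions, was at 9.24, 5.57 and 6.32 TPM. Eng and Emcn stood well above the rest of the list. Eng, a receptor of TGF-beta ligands that macrophages also carry, was at 73.9, 103 and 57.6 TPM. Emcn, which encodes endomucin, was at 68.5, 96.7 and 65.9 TPM. Tek, Egfl7, Erg and Vwf were the other detected members, so the list lay on both sides of the limit. Of 9 genes of pericytes and smooth muscle 7 were detected. Acta2, smooth muscle actin, which activated fibroblasts also make, was the highest at 823, 794 and 521 TPM. Tagln, an actin-binding protein of smooth muscle, was at 3.61, 7.18 and 4.45 TPM, and Cspg4, a proteoglycan of pericytes, at 4.16, 2.16 and 2.56 TPM. Myh11, the smooth muscle myosin, was under 1 TPM in every pool at 0.472, 0.0251 and 0.230 TPM. Pdgfrb, a receptor of pericytes and fibroblasts, was at 129, 78.3 and 88.9 TPM.

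By summed TPM, the order of the marker lists was macrophages, mesenchyme, general epithelium, otoconia, supporting cells, cartilage and bone, hair cells, glia, pericytes, dark cells and melanocytes. Of the 18 neighbouring pairs of the 19 lists in this order, 11 did not overlap over the 3 pools, whereas 7 of 18 did not overlap in the order by median. A sum can rest on 1 gene. Without the highest member of each list, mesenchyme (7437 TPM) came before macrophages (5521 TPM). The ratio of Lyz2 to Gjb2 was 18.2, 17.6 and 10.9, lowest in replicate 3, where the former had its lowest and the latter its highest level.

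**Figure D5:**
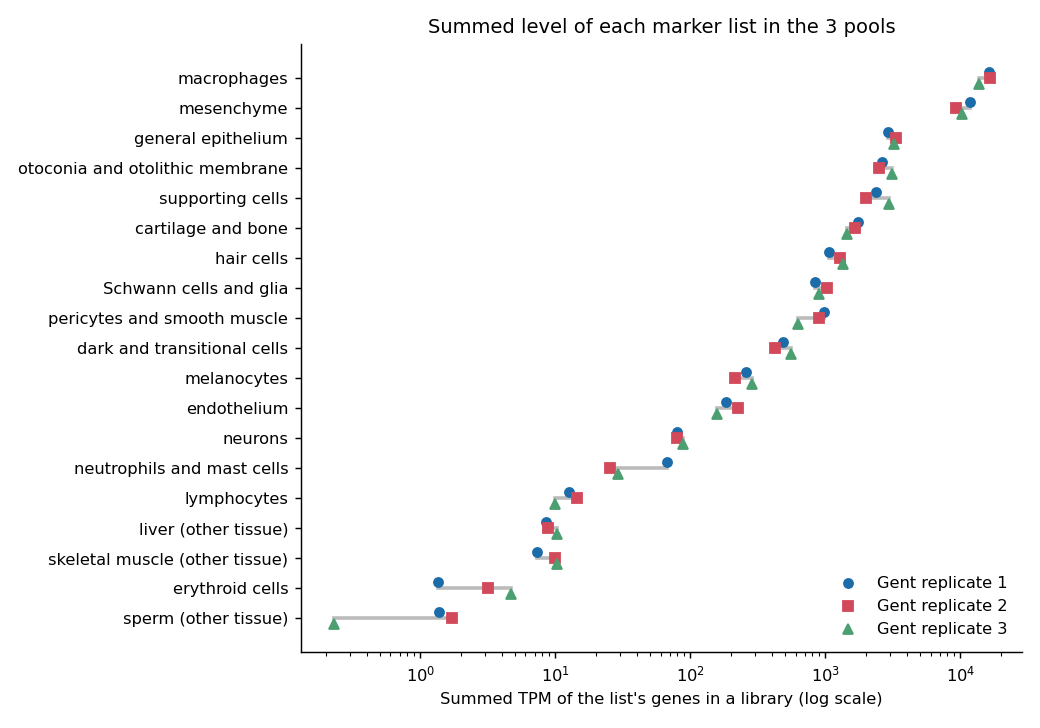
Summed TPM of each marker list on a log axis in Gent replicates 1 to 3 (points) with the range over the pools (grey lines), ordered by the mean sum. Macrophage sums lie between 13655 and 16447 TPM and hair cell sums between 1064 and 1343 TPM, and the ranges of the neutrophil and mast cell, erythroid and sperm lists are wide, with ratios of 2.65, 3.51 and 7.46 between the highest and lowest pool.

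Cell states were described with 12 further lists. Genes of the cell cycle were all detected, 17 of 17, at a median of 29.88 TPM (percentile 60.7). Pcna, the clamp of DNA replication, was the highest at 202, 177 and 189.5 TPM. Rrm2, Mcm3 and Top2a of DNA synthesis followed, Rrm2 at 55.4, 40.3 and 47.2 TPM. Mki67, which encodes the proliferation marker Ki-67 and has 10061 exonic bases, was at 52.4, 20.8 and 30.8 TPM. Ccnb2, a cyclin of mitosis, was even at 38.4, 38.2 and 36.9 TPM. Cell cycle inhibitors and D cyclins had a median of 58.8 TPM (79.1). Cdkn1a, which encodes p21, was the highest at 297, 341 and 331 TPM. Cdkn1c, which encodes p57, was at 71.9, 125 and 93.8 TPM. The D cyclins drive cells out of G1 and differed between pools. Ccnd1 was at 114, 39.0 and 71.4 TPM, and at 106, 44.2 and 69.2 TPM with the length trend removed. Ccnd2 was at 90.3, 28.5 and 58.3 TPM. Ccnd3 was at 35.7, 39.9 and 38.9 TPM with 8775 exonic bases, and at 29.4, 52.8 and 36.4 TPM with the trend removed, where replicate 2 was the highest.

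Immediate early genes encode factors that cells switch on within minutes of a stimulus, AP-1 among them. Fos, the gene that was overexpressed in the other libraries, was at 60.7, 51.2 and 52.4 TPM in the Gent pools (54.8 ± 5.16 TPM, SD, n = 3), at percentile 77.5 of the detected genes. Jun, its partner in AP-1, was at 132, 94.2 and 130.3 TPM, and Fos over Jun was 0.46, 0.54 and 0.40. Junb, a further partner, was at 108, 115 and 97.2 TPM. Jund was at 76.3, 85.5 and 89.9 TPM, so all 3 Jun genes exceeded Fos in every pool. Fosl2, of the Fos family with 9680 exonic bases, was at 45.4, 16.7 and 31.1 TPM. Fosb and Fosl1 passed 1 TPM in some pools only. Atf3, a stress factor that joins AP-1, was at 99.0, 98.3 and 111 TPM. Of the 14 genes 12 were detected, and their sums of 754, 661 and 727 TPM had a CV of 6.66%.

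Genes of inflammation and the acute phase stood high, with 15 of 15 detected and a median of 165 TPM (93.4). Lcn2 made up 49.4% of the sum. Ccl2, which draws monocytes, was at 623, 641 and 746 TPM. The serum amyloid gene Saa3 was at 620.0, 577 and 455 TPM. Complement C3, with 5143 exonic bases, was at 549, 265 and 373 TPM and highest in replicate 1. The cytokine genes were far apart in level. Tnf was at 85.4, 77.1 and 72.9 TPM. Il1b was at 9.60, 11.8 and 12.3 TPM. Il6 was at 4.64, 3.06 and 4.15 TPM. Interferon-stimulated genes were all detected, 11 of 11 measured. Ifitm3, which blocks entry of viruses, was the highest at 1895, 3175 and 2317 TPM. Bst2, which tethers virions, was at 691, 774 and 931 TPM. Isg15, a ubiquitin-like modifier, was even at 301, 336 and 343 TPM, and Ifit3 came after it at 128, 161 and 134 TPM. Targets of p53, the factor that DNA damage activates, were detected for 13 of 13 genes at a median of 37.5 TPM (67.3). Ccng1, a cyclin that p53 induces, was the highest at 564, 361 and 606 TPM. Bax, which promotes apoptosis, was at 219, 309 and 239.8 TPM. Phlda3, an inhibitor of AKT, was at 171, 258 and 202 TPM. Bbc3, which encodes the apoptotic protein PUMA, was even at 22.5, 22.1 and 22.9 TPM.

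Matrix metalloproteinases and their inhibitors had the highest median of the 31 lists over the mean TPM, 212 TPM (95.1), with 8 of 9 genes detected. In the single pools their medians were 251, 94.6 and 207 TPM, and in replicate 2 the inflammation, macrophage, otoconia and glycolysis lists stood higher. Mmp2, a gelatinase, was the highest at 978, 709 and 811 TPM. Mmp14, which activates it, was at 251, 178 and 207 TPM. The inhibitor Timp1 was at 490.5, 749.8 and 372 TPM, and its ratio to Mmp2 was 0.50, 1.06 and 0.46. Timp2 was at 569, 422 and 493 TPM. The inhibitor Timp3, with 8144 exonic bases, was at 378, 94.6 and 243 TPM. Replicate 2 was thus the highest pool for Timp1, with 888 exonic bases, and the lowest for Timp3. With the length trend removed this held, at 560.4, 644 and 388 TPM for Timp1 and 315, 123 and 228 TPM for Timp3. Glycolysis and hypoxia genes were detected for 14 of 14 at a median of 88.0 TPM (86.6). Aldoa, an aldolase, was the highest at 953, 1369.5 and 924 TPM. The pyruvate kinase gene Pkm was at 897, 989 and 854 TPM. Ldha, which makes lactate, was at 796, 971 and 805 TPM. Pgk1, a kinase of glycolysis, was even at 663, 663 and 639.8 TPM. Gapdh, with 4133 exonic bases, was listed at only 69.3, 95.8 and 78.8 TPM, and this gene has pseudogene copies whose shared reads were not counted.

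Notch signalling holds supporting cells in their fate by lateral inhibition, and 15 of 17 genes of the pathway were detected. Among receptors, Notch2, with 10782 exonic bases, was at 55.8, 17.0 and 36.3 TPM, and at 44.2, 23.6 and 33.6 TPM with the length trend removed. Notch1, with 14232, was at 32.4, 15.3 and 29.2 TPM, and at 24.3, 22.7 and 26.8 TPM with the trend removed. Notch3, with 8089, was at 26.0, 18.6 and 24.9 TPM. All 3 receptors were lowest in replicate 2 as TPM, but with the trend removed Notch3 was highest there at 21.7, 24.1 and 23.3 TPM. Among ligands, Jag1, which marks supporting cells, was at 47.1, 22.7 and 47.8 TPM. Dll1, which nascent hair cells present, was at 7.36, 4.72 and 7.27 TPM, and Jag1 over Dll1 was 6.40, 4.82 and 6.58. The ligand gene Dll4 was under 1 TPM in every pool. Lfng, a glycosyltransferase that modifies Notch, was the highest of the pathway at 156, 153 and 219 TPM. Among effectors, Heyl was the highest at 51.5, 61.6 and 69.0 TPM. Hey1 was at 41.1, 42.8 and 62.7 TPM. Hes1 was at 25.1, 25 and 30.1 TPM. Hes5, the effector most closely tied to lateral inhibition in the ear, was at 1.27, 0.349 and 0.377 TPM, and 31.8% of its exonic bases are shared with another gene.

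In the Wnt pathway 21 of 22 genes were detected. The ligand gene Wnt5a was at 105, 55.1 and 104 TPM. The ligand gene Wnt7a was at 26.7, 30.2 and 38.9 TPM. Wnt3a was under 1 TPM in every pool. Ctnnb1, which encodes the mediator beta-catenin, was at 634, 314 and 659 TPM, with 14.6% of its exonic bases shared with another gene. Axin2, a feedback target that reads out the pathway, was at 27.3, 22.0 and 30.0 TPM. The secreted Dkk3 was the highest of the list at 712, 547 and 804 TPM. The receptor gene Fzd2 was at 99.2, 99.8 and 92.4 TPM and even. The secreted antagonist Sfrp1 was at 224, 196 and 259.6 TPM, above the ligands named here in each pool. The coreceptor gene Lrp6, with 13672 exonic bases, was at 61.9, 17.7 and 44.7 TPM. In all, 4 of the 21 genes differed by 2 times or more between pools, and none did with the length trend removed, beside 18.4% and 8.20% of all detected genes.

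Genes of the epidermal barrier and of motile cilia were read as well, and which cells expressed them was not tested. Of 16 barrier genes 7 were detected. Sfn, an adaptor of stratified epithelia, was the highest at 71.2, 77.4 and 59.0 TPM. Sprr1a, a precursor of the cornified envelope, was at 63.2, 84.2 and 24.3 TPM. Crct1 and Ivl, also of the cornified envelope, were lower, with Ivl at 7.72, 8.17 and 3.91 TPM. The basal keratin Krt14, Trp63, the regulator of stratification, Krt1, Krt6a, Sprr1b and Sprr2a1 were under 1 TPM in all 3 pools. In this list 5 of the 7 detected genes differed by 2 times or more between pools, and 4 did with the length trend removed, beside 18.4% and 8.20% of all detected genes. As TPM all 7 were highest in replicate 2, as were 3827 of the 14579 detected genes, but with the trend removed 3 were highest there and 4 in replicate 1. Of 10 cilium genes 7 were detected. Tekt1, of the axoneme, was the highest at 61.8, 95.6 and 74.8 TPM. Foxj1, the regulator of motile cilia, was at 46.6, 72.5 and 64.2 TPM. The axonemal genes Dnaic1 and Rsph1 followed, Dnaic1 at 28.3, 55.9 and 40.6 TPM. Mcidas, which starts multiciliated cell fate, and Ccdc153 were under 1 TPM in every pool.

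Over all detected genes, the CV between the 3 pools had a median of 19.5%, with quartiles at 11.3% and 30.1%. Without replicate 2 the median CV was 8.80%, but a CV over fewer pools tends to be smaller for the same spread. Over the 3 pools the median CV was 25.9% for genes with a mean of 1 to 5 TPM and 15.3% for those of 50 to 500 TPM. The highest pool stayed under 2 times the lowest for 81.6% of genes. The other 2688 genes included 2234 that were lowest in replicate 2, and with the length trend removed 1196 genes (8.20%) differed by 2 times or more. Replicates 1 and 3 were the closest pair, with a median fold of 1.13 between them and 286 genes 2 times or more apart. Replicates 1 and 2 were the farthest, with a median fold of 1.38 and 2313 genes that far apart. An edgeR fit with an intercept alone put the common biological CV of the counts at 24.7%.

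Genes with a mean of at least 5 TPM were ranked by their spread. The most even was Cdk9, a kinase that releases paused RNA polymerase II, at 51.1, 51.2 and 50.9 TPM (CV 0.30%). Sap18, a subunit of a histone deacetylase complex, followed at 61.1, 60.8 and 61.3 TPM. Fscn1, which encodes the actin bundler fascin, was the highest of the 10 most even at 364, 368 and 369 TPM. The other 7, Acp6, Prpf40b, Stx2, Armh3, Plekhn1, Rnpep and Agfg2, had CVs from 0.492% for Acp6 to 0.791% for Agfg2.

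At the other end, 14 of the 15 genes with the largest ratio between pools were highest in replicate 1. Ms4a4a, a membrane protein gene of the MS4A family, was at 46.2, 3.19 and 23.6 TPM, a ratio of 14.5. Gfap, a filament of astrocytes and other glia (chromosome 11 from 102887336 to 102900912 on mm10), was at 40.2, 2.78 and 3.0 TPM on 1370, 123 and 123 counts, so replicate 1 stood alone. Of the 18 genes of the glial list 7 were highest in replicate 1, as were 6560 of the 14579 detected genes. Fabp7 was one of them at 46.2, 29.8 and 20.1 TPM, whereas Sox10 and S100b were lowest there. A group of genes had replicate 2 far below the others. Atp7a, a copper transporter with 8734 exonic bases, was at 23.5, 1.67 and 15.7 TPM. Klhl11, with 2393 exonic bases, was at 23.4, 2.59 and 18.4 TPM. Atm, a kinase of the DNA damage response with 10338 exonic bases, was at 14.0, 1.80 and 9.58 TPM. Uprt, Pdpr, Prrg4 and Hipk2 shared this order, with ratios of 7.74 for Uprt to 6.42 for Hipk2. Pappa2, a protease that frees insulin-like growth factors, was at 37.4, 4.92 and 12.0 TPM. Mmp8, a collagenase of neutrophils, was the exception and was highest in replicate 3 at 5.92, 2.67 and 19.6 TPM. S100a8, Olig1, the immunoglobulin segment Igkv6-14 and Zc3h11a made up the rest. Igkv6-14 rested on 27, 25 and 4 counts, and 75% of the exonic bases of Zc3h11a are shared with another gene.

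Genes that set a single pool apart from the mean of the other 2 were ranked in the same way. Replicate 1 was set apart upward by Ccn3, a matricellular protein gene, at 20.1, 4.91 and 3.41 TPM. Lgi2 and the lncRNA Gm28913 were also highest there, beside Gfap, S100a8, Pappa2 and Ms4a4a. It was set apart downward by Gzmb, a granzyme, at 3.19, 16.2 and 8.38 TPM, and by Morn5, Ly6g6e, Bpifa6, 1190005I06Rik, 3830403N18Rik and Gm15691. Replicate 2 was set apart upward by short genes. Ppp1r1a, a phosphatase inhibitor of 1306 exonic bases, was at 61.3, 234 and 88.5 TPM. Cox7a1, a cytochrome oxidase subunit of 535 bases, was at 12.7, 39.0 and 12.1 TPM. Lrrc23, 2310034G01Rik, Tmsb15b1 and Gm567 were also highest there. Replicate 3 was set apart upward by Mmp12, the macrophage elastase, at 42.6, 44.8 and 99.9 TPM. Cxcl3, a chemokine that draws neutrophils, was also highest there, at 5.94, 5.03 and 12.2 TPM. H2-Q6, of MHC class I, was at 32.2, 15.2 and 55.1 TPM, though its paralogs share sequence. C1qtnf3, Tstd1 and Gm9958 were likewise highest there. Olig1, Igkv6-14, Ccn3 and Gm567 were lowest in replicate 3. Gfap also ranked below the mean of the other 2 there, though replicates 2 and 3 were alike and replicate 1 raised that mean. Lce3f, of the cornified envelope, was at 14.0, 12.9 and 3.20 TPM, and Sprr1a was lowest there too, as was Ndufa4l2 at 15.6, 24.6 and 5.36 TPM.

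The motifs shown above were counted over the promoters of 18878 genes in windows of the same length. Windows of the 11090 detected genes had a median GC content of 60.7%, and 7.22% of them held TATAAA. Windows of the 3546 genes with no count had 46.7% GC, and 21.7% held it. Over all promoters the shares were 11.8% for TATAAA, 4.85% for TGACTCA and 3.35% for GAGGAAGT. Of the 100 highest genes with a promoter, 15 held TATAAA, 6 held TGACTCA and 4 held GAGGAAGT. Of 12 mesenchymal promoters 6 held TATAAA, and of 16 macrophage promoters 1 held GAGGAAGT. Higher shares were found in lists of low level. Of 8 neutrophil and mast cell promoters 5 held TATAAA and 4 held GAGGAAGT, and of 6 skeletal muscle promoters 4 held TATAAA. A match of letters is not shown to be a site of binding.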

How the data were processed

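Paired-end RNA-seq of 3 Gent pools was analysed, and the 4 Gent+Fos OE libraries were not used. The authors deposited gene counts per library. Per the file headers and the submitters' processing notes, reads were trimmed (Trim Galore 0.6.10), aligned to mm10 (HISAT2 2.2.1) and counted (featureCounts 2.0.6) without strand, each read of a pair separately, multi-mapping and multi-overlapping reads dropped. Duplicated and overlapping genes are thus counted low. The methods name a later build and other versions, and the files were followed. Counts were turned to TPM (Python 3.11.15, pandas 2.3.3) with the exonic lengths in the files. Ensembl IDs were matched to symbols through the annotation, and of the listed genes Mx1 alone found no match. Length trends were removed by lowess (span 0.3, statsmodels 0.14.6) on log2 values, and dispersion was fitted by edgeR 4.0.16 with an intercept. No groups were compared and no test was made; the spread between pools holds biological and technical spread. Scripts were tested on simulated data. Named genes are the 20 of highest mean TPM outside mitochondrially encoded and ribosomal protein genes; in each list the 4 highest members, those under 1 TPM in all 3 libraries and the defining markers; and, among genes with a symbol, a mean of at least 5 TPM and 1 TPM in each library, the 15 of largest ratio of highest to lowest, the 10 of lowest CV and, for each library, the 8 farthest above and below the mean of the other 2 on the log2 scale. Other list members may be named, and a few genes that this rule or the lists hold are not reported here. The members and lists were chosen with earlier results of these data known, and families, ratios and motifs after seeing the values. Alternatives were other TPM denominators, limits, scalings and libraries left out.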

Additional observations from a re-analysis of the deposited data

How the results depend on the processing

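The share of TPM held by the 10 highest genes, 9.46%, came to 7.31% without mitochondrially encoded genes. The median CV between pools, 19.5%, ranged with 1 pool left out from 8.80% without replicate 2 to 22.8% without replicate 3. A CV over fewer pools tends to be smaller for the same spread. Over genes with a count in each library the median CV came to 23.3%. Percentiles of list medians depended on the genes ranked against. Among all genes with a count, hair cells came to 63.8 (43.8 as reported), supporting cells to 87.8 (81.0), dark and transitional cells to 71.6 (55.9), macrophages to 95.4 (92.8), glia to 66.1 (47.4) and melanocytes to 50.6 (23.3). In CPM scaled by TMM, with no division by length, dark and transitional cells came to 62.8, macrophages to 88.4, glia to 37.3, melanocytes to 18.6 and mesenchyme to 96.6 (92.3). With members of over 10% overlap left out, supporting cells came to 84.9, dark and transitional cells to 63.1 and melanocytes to 27.9. With members of more than 1 list left out, supporting cells came to 89.6. They then stood above general epithelium (86.7), which shares no member with another list, and below it as reported. Leaving out 1 pool gave 46.9 to 51.4 for glia and 23.8 to 26.2 for melanocytes, the highest being without replicate 2 in both. Mesenchyme stood above macrophages in CPM and below them as reported. The order of the 19 marker lists moved by at most 4 places in CPM and 5 with replicate 2 alone. It did not move once each library's length trend was taken out (added with the values already seen). That outcome was nearly fixed in advance. Each trend is taken about the mean of the 3 libraries, so mean TPM is left almost unchanged. With 3 pools and no undamaged tissue, no effect of gentamicin can be read, and a gene under 1 TPM was under the limit set here, which is not absence. No paired analysis was possible because no groups were compared.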

Other observations

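Gene families outside the lists were chosen by symbol after the data had been seen, and are given as values. The lysosomal cathepsins numbered 23 genes, of which 12 were detected, and their sums of 11844, 11468 and 11931 TPM were even over the pools. After Ctsd, the highest was the cysteine protease gene Ctsb at 1923, 1621 and 1883 TPM, then Ctsz at 1187, 1273 and 1154 TPM. Ctss, which myeloid cells make, was at 673, 592 and 664 TPM. Of 44 collagen chain genes, 36 were detected, and their sums were 9180.3, 6179.8 and 7084 TPM, lowest in replicate 2. Chemokine genes were detected for 25 of 38, and besides Ccl2 the macrophage chemokine gene Ccl3 was at 503, 439 and 454 TPM and Ccl7 at 297, 391 and 394 TPM. Of MHC class II, the invariant chain Cd74 was at 66.7, 45.1 and 66.4 TPM and H2-Ab1 at 1.54, 3.19 and 2.32 TPM. The alarmin cytokine gene Il33 was at 519, 333 and 521 TPM.

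Among otic transcription factors, 15 of 21 were detected. Tbx2 was at 104, 149 and 140.1 TPM, Six2 at 102, 138 and 102 TPM and Hmx3, a regulator of the vestibular organs, at 72.5, 62.9 and 101 TPM. Pax8, which acts early in the otic placode, was at 0.0408, 0 and 0 TPM. Of 39 Hox genes 1 was detected, Hoxa2, at 5.23, 2.95 and 1.45 TPM. Among claudins, which seal tight junctions, Cldn9 was the highest at 476, 658 and 631 TPM, with Cldn3 at 348, 504 and 425 TPM and Cldn11 at 429, 358 and 462 TPM. In the insulin-like growth factor system Igf2 was at 1137, 974 and 874 TPM and Igf1 at 76.4, 42.2 and 52.8 TPM. Of 16 S100 genes, which encode calcium-binding proteins, 10 were detected, and after S100a1 the highest was S100a11 at 2082, 3480.2 and 2099.8 TPM.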
